A study of Homo sapiens with 6 samples.

Results

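The genes described here encode subunits of the NADPH oxidase of phagocytes and its activators: CYBB, CYBA, NCF1, NCF4, RAC2 and VAV1, together with NCF1B and NCF1C, which are near-identical in sequence to NCF1. They were chosen by symbol, through the Ensembl identifier of each row, and make up 8 of the 18798 genes in the deposited table. All 8 had enough counts to be tested. RNA was sequenced from U937 cells, a long-established human monocytic line, and all 6 cultures were genetically modified, grown in serum and selected with geneticin. Control denotes 3 lines that had received control plasmids. ΔNSPs denotes 3 independent clones depleted of CTSG, ELANE and PRTN3 at the same time, so that each ΔNSPs library stands for 1 clone. These 3 genes encode the neutrophil serine proteases cathepsin G, neutrophil elastase and proteinase 3.

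The phagocyte oxidase moves electrons from NADPH to oxygen and releases superoxide, which phagocytes use against ingested microbes. The membrane part, cytochrome b558, is a pair of proteins: gp91phox, encoded by CYBB, holds the electron path, and p22phox, encoded by CYBA, stabilises it and offers a docking site. On activation cytosolic proteins, among them p47phox (NCF1) and p40phox (NCF4), join the cytochrome, with the small GTPase RAC2, and VAV1 is an exchange factor that loads Rac with GTP. Inherited loss of CYBB, CYBA, NCF1 or NCF4 causes chronic granulomatous disease. Myeloid lines such as U937 are known for low oxidase activity until they are driven to mature.

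The sequences around the start of exon 2 are shown first, since they separate the working gene from its copies and bear on how far their counts can be told apart. Each line gives the last 40 bases of exon 1 and the next 40 bases of the annotated transcript in GENCODE release 29 (GRCh38), 5′ to 3′, and the capitals mark the GT repeats that open exon 2.
NCF1: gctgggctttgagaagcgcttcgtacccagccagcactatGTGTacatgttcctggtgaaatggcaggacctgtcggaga
NCF1B: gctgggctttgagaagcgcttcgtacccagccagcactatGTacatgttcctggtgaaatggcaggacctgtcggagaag
NCF1C: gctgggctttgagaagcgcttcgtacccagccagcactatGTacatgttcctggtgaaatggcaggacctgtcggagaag
Exon 2 is 81 bases long in NCF1 (chr7:74777267-74777347, plus strand), and 79 bases long both in NCF1B (chr7:73223878-73223956, plus strand) and in NCF1C (chr7:75168632-75168710, minus strand). It opens with 2 GT repeats in NCF1 and with 1 in the copies, where the reading frame is lost. GENCODE classes NCF1 as protein coding, NCF1B as a transcribed unprocessed pseudogene and NCF1C as an unprocessed pseudogene. Over 1396 aligned columns, the main transcripts of NCF1 and NCF1C had 8 mismatches and 2 gap bases, an identity of 99.3%. Of the 1347 windows of 50 bases in the NCF1 transcript, 84.5% also occurred letter for letter in an annotated transcript of NCF1B or NCF1C, and of the 1297 windows of 100 bases, 64.5% did. The sources used here give neither the read length nor the handling of reads with several matches, so the split of counts between the 3 loci is uncertain and their sum was tested as well.

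The libraries held 11476619 to 13782854 counts, and a floor of 3 counts lay at 0.214 to 0.260 CPM (each count divided by its library's TMM-adjusted total, on the usual CPM scale). The targeted transcripts were lower in each clone than in any Control line. CTSG fell from 1897 to 2756 CPM in Control to 45.3 to 136 CPM in ΔNSPs (edgeR adjusted p = 0.0215). ELANE was at 971 to 1327 CPM and at 1.90 to 41.9 CPM, and passed in DESeq2 but not in edgeR (adjusted p = 0.145). PRTN3 was at 147 to 539 CPM in Control and at 0.857, 63.3 and 55.4 CPM in clones 1 to 3, and passed in neither (adjusted p = 0.217 in edgeR and 0.21 in DESeq2). Of 12 markers of monocytic cells, 11 were in the table and 8 had a mean of at least 1 CPM, among them CD33, LYZ, PTPRC and SPI1, while CD14 and CD68 were at 1.14 CPM at most in every library. The summed level of these markers was 682 to 730 CPM in Control and 551 to 1053 CPM in ΔNSPs. Of 5 T cell markers only TRAC was in the table, at 0.347 to 0.597 CPM in Control and 1.14 to 3.79 CPM in ΔNSPs, with no overlap. B cell markers (3 of 4 in the table) summed to 38.4 to 69.5 CPM and 25.2 to 59.3 CPM, and erythroid markers (4 of 5) to 97.3 to 171 CPM and 105 to 149 CPM. The part of these differences in the results was not tested. Epithelial and fibroblast markers summed to at most 0.337 and 9.25 CPM. In bulk RNA, fewer cells that express a gene and less RNA per cell cannot be told apart, and p-values measure the spread between these lines and clones.

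NCF1, NCF1B and NCF1C showed the widest differences: in ΔNSPs clones 2 and 3 they stood at 5.53 to 14.5 times the highest Control line, and in clone 1 they stood within or below the Control range. NCF4 and VAV1 were higher in each clone than in any Control line by smaller margins, CYBA was higher in clones 2 and 3, RAC2 differed little, and CYBB was highest in clone 1 and lowest in clone 2. In edgeR's quasi-likelihood test, 0 of the 8 genes passed an adjusted p of 0.05 over all genes, where 0.0203% of the 14797 tested genes did. At an unadjusted p under 0.05 there were 5 of 8 (NCF1, NCF1B, NCF1C, NCF4 and VAV1), and 17.8% of all tested genes met that mark. DESeq2 called 1 of 8, NCF1B, against 3.98% of the genes to which it gave an adjusted p, and limma voom called 0. Left without clone 1, edgeR called 4 of 8 as higher (NCF1, NCF1B, NCF1C and VAV1), where 3.04% of all tested genes were called higher. Clone 1 was the clone nearest to Control for these 4 genes, so leaving it out favours such calls. Calls without clone 1, here and below, are descriptions only. In all these counts NCF1, NCF1B and NCF1C are not 3 independent genes, since the split of reads between them is uncertain. The groups did not overlap, with ΔNSPs higher, for 2 of 8 genes against 12.2% of all tested genes, and with ΔNSPs lower for 0 of 8 against 11.7%.

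**Figure D1:**
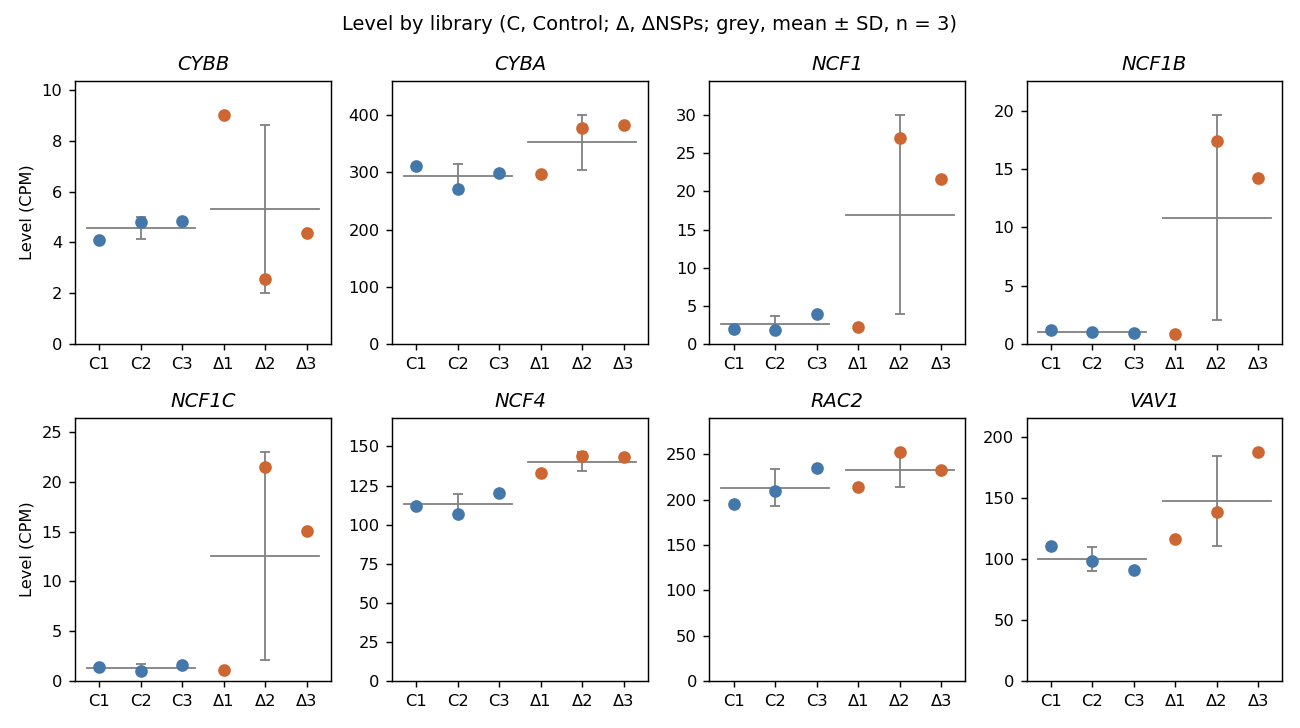
Level of each gene in CPM (y axis, from 0, a scale for each gene) in the 3 Control (blue, C1 to C3) and 3 ΔNSPs (orange, Δ1 to Δ3) libraries, with the group mean ± SD in grey. NCF1 stands at 27.0 and 21.6 CPM in clones 2 and 3 and at 2.21 CPM in clone 1, while NCF4 lies between 133 and 144 CPM in all 3 clones.

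CYBB (ENSG00000165168; chromosome X, 37780011 to 37813461, plus strand) was read at 4.09, 4.79 and 4.86 CPM in Control replicates 1 to 3 and at 8.99, 2.58 and 4.39 CPM in ΔNSPs clones 1 to 3, which rests on 34 to 126 counts per library. The Control lines lay close together, and the clones fell on either side of them: clone 1 was at 1.96 times the Control mean and clone 2 at 0.563 times. The means were 4.58 ± 0.425 CPM and 5.32 ± 3.31 CPM (SD, n = 3), with a log2 fold change of 0.22 (SE 0.42, with an edgeR adjusted p = 0.815). Without clone 1 the fold change turned negative (log2 -0.41, edgeR adjusted p = 0.441). Among tested genes, the log2 range of CYBB over the clones, 1.74, was wider than that of 95.3% of genes, while its range over the Control lines, 0.24, was wider than that of 38.8%. A protein-coding gene model on the same strand, AF241726.2, overlaps CYBB, and it was not analysed here.

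CYBA (ENSG00000051523; chromosome 16, 88643283 to 88651152, minus strand), which encodes the partner of gp91phox, was at 312, 271 and 299 CPM in Control and at 298, 377 and 382 CPM in clones 1 to 3. Clones 2 and 3 lay above each Control line and clone 1 lay among them. The log2 fold change was 0.26 (SE 0.12, with an edgeR adjusted p = 0.312), and without clone 1 it was 0.36 (edgeR adjusted p = 0.0828). CYBA thus followed clones 2 and 3, as the NCF1 loci did, with a far smaller difference, and CYBB did not.

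NCF1 (ENSG00000158517; chromosome 7, 74773962 to 74789315, plus strand), the gene of the organiser p47phox, was at 1.96, 1.89 and 3.90 CPM in the Control lines and at 2.21, 27.0 and 21.6 CPM in clones 1 to 3. Behind these levels stood 23, 26 and 45 counts in Control and 31, 356 and 256 counts in the clones. NCF1B (ENSG00000182487; chromosome 7, 73220624 to 73235945, plus strand) was at 1.19, 1.02 and 0.954 CPM in Control and at 0.857, 17.4 and 14.3 CPM in the clones. NCF1C (ENSG00000165178; chromosome 7, 75156639 to 75172044, minus strand) was at 1.36, 1.02 and 1.65 CPM and at 1.07, 21.5 and 15.0 CPM. For all 3 loci clones 2 and 3 were far above the other 4 libraries, with clone 2 the highest, and clone 1 could not be set apart from the Control lines. Clone 2 stood at 10.4 times the Control mean for NCF1, 16.5 times for NCF1B and 16.0 times for NCF1C. Clone 3 stood at 8.36, 13.5 and 11.2 times the Control mean of the same genes.

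Against that spread among clones, none of these loci passed in edgeR with all 6 libraries. The log2 fold change was 2.71 for NCF1 (SE 0.79, with an edgeR adjusted p = 0.182), 3.35 for NCF1B (SE 0.91, with an edgeR adjusted p = 0.178) and 3.22 for NCF1C (SE 0.89, with an edgeR adjusted p = 0.178). NCF1B rose in DESeq2 (adjusted p = 0.0438), while NCF1C (0.0526) and NCF1 (0.0807) missed its threshold. Without clone 1 all 3 rose in edgeR, with log2 fold changes of 3.23, 3.89 and 3.76 and adjusted p = 0.00506, 0.00262 and 0.00369. Clone 1 was the only clone without the rise, so leaving it out favours that result. With any other single library left out, none of the 3 passed (edgeR adjusted p = 0.224 to 0.532). Without clone 2 the log2 fold change of NCF1 was 2.20, the lowest of its alternatives. Over the clones the log2 range was 3.52 for NCF1, 4.11 for NCF1B and 4.14 for NCF1C, and 165, 112 and 108 of the 14797 tested genes had a wider range.

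Summing the 3 loci removes the question of how counted reads were split among them, but does not restore any reads left uncounted. The summed family was at 4.52, 3.92 and 6.51 CPM in Control and at 4.14, 65.9 and 50.9 CPM in clones 1 to 3. The sum in clone 2 was 10.1 times that of the highest Control line and in clone 3 it was 7.82 times, while clone 1 was at 0.636 times that line. The sum's log2 fold change was 3.02 (SE 0.83, with an edgeR adjusted p = 0.179), and the adjusted p was 0.055 in DESeq2. Without clone 1 the sum rose with a log2 fold change of 3.55 (SE 0.22, with an edgeR adjusted p = 0.00282). Tested as a sum, the family gave the same picture as the separate loci that make it up, so the sum is not separate support.

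**Figure D2:**
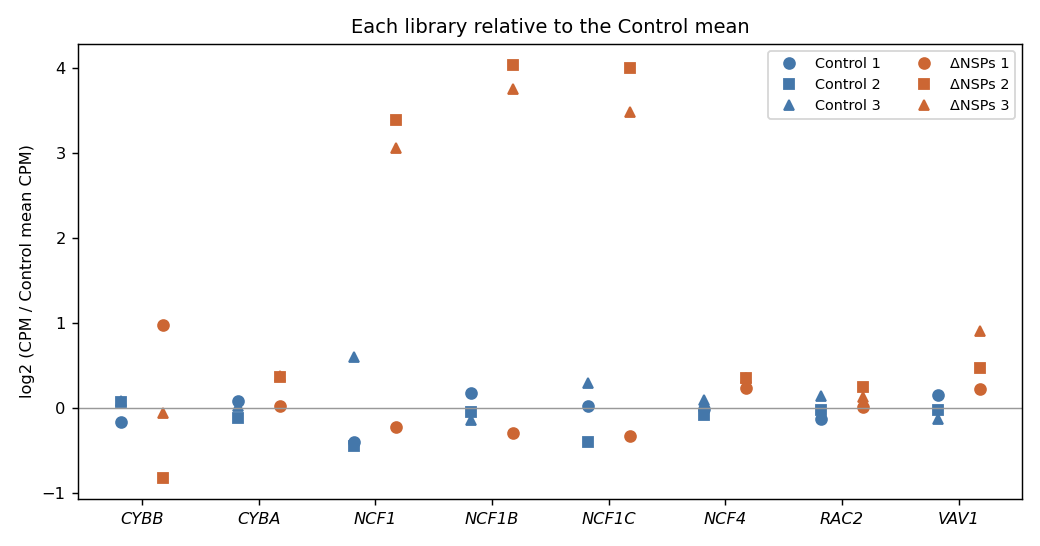
Each library's level relative to the mean of the 3 Control lines (y axis, log2 ratio of CPM) for the 8 genes on the x axis, with Control in blue, ΔNSPs in orange and the replicate or clone number as the symbol. The 3 NCF1 loci lie above 3 in clones 2 and 3 and below 0 in clone 1, and CYBB lies at 0.97 in clone 1 and at -0.83 in clone 2.

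The split of counts among the loci was also read in each library. NCF1 took 43.4%, 48.1% and 60.0% of the family's counts in Control replicates 1 to 3 and 53.4%, 41.0% and 42.5% in clones 1 to 3. With 95% Wilson intervals, which cover counting error only, its share was 37.7% to 44.3% in clone 2 and 38.6% to 46.4% in clone 3, against 48.7% to 70.3% in Control replicate 3 and 40.8% to 65.7% in clone 1. Control replicate 3 was the only library whose interval lay above those of clones 2 and 3. NCF1B took 14.7% to 28.0% and NCF1C 25.3% to 32.7% over the 6 libraries. NCF1B and NCF1C together thus received more counts than NCF1 in every library except Control replicate 3 and clone 1.

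**Figure D3:**
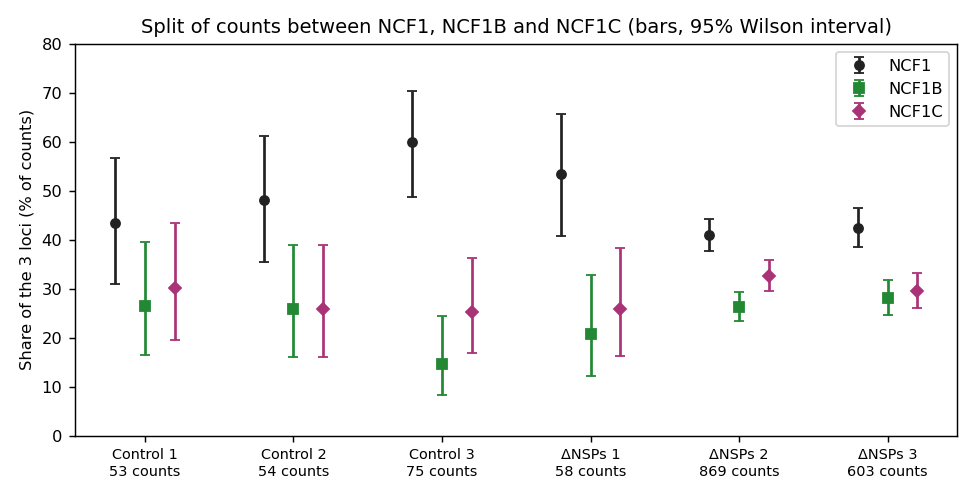
Share of the summed counts of NCF1, NCF1B and NCF1C that was assigned to each locus (y axis, percent) in each library (x axis, with the summed counts), with 95% Wilson intervals as bars. The intervals are narrow in clones 2 and 3, with 869 and 603 counts, and wide elsewhere, with 53 to 75 counts.

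NCF4 (ENSG00000100365; chromosome 22, 36860988 to 36878015, plus strand), the gene of p40phox, which binds a membrane lipid, was at 112, 107 and 120 CPM in Control and at 133, 144 and 144 CPM in clones 1 to 3. Each clone lay above each Control line, and the gap between the groups was small. The log2 fold change was 0.31 (SE 0.097; unadjusted p = 0.0118, edgeR adjusted p = 0.191). The clones lay close together for NCF4: their log2 range was 0.11, and 13756 of the 14797 tested genes had a wider one. An antisense gene, NCF4-AS1, overlaps NCF4, and since the strand setting of the counting is unknown their reads cannot be told apart for certain. NCF4-AS1 was at 21.7 to 25.9 CPM in Control and 26.8 to 29.03 CPM in the clones, also with no overlap.

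RAC2 (ENSG00000128340; chromosome 22, 37225261 to 37244448, minus strand), the Rac GTPase of blood cells, was at 195, 209 and 235 CPM in Control and at 214, 252 and 232 CPM in clones 1 to 3. The groups overlapped, and the log2 fold change was 0.13 (SE 0.11, with an edgeR adjusted p = 0.573). Clone 2 was the highest library and Control replicate 1 the lowest.

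VAV1 (ENSG00000141968; chromosome 19, 6772714 to 6857366, plus strand) was at 111, 98.2 and 90.9 CPM in Control and at 116, 138 and 188 CPM in clones 1 to 3. Every clone lay above every Control line, with clone 1 at 1.05 times the highest of them and clone 3 at 1.70 times. The log2 fold change was 0.56 (SE 0.18; unadjusted p = 0.0137, edgeR adjusted p = 0.198). VAV1 rose without clone 1 (log2 fold change 0.70, edgeR adjusted p = 0.0426), and without clone 3 its log2 fold change was 0.35. The expressed genes within 10 Mb of VAV1 were also higher in clones 2 and 3: the median log2 ratio of 306 such genes to the Control mean was 0.0098, 0.23 and 0.48 in clones 1 to 3, and 0.15, -0.13 and -0.039 in Control replicates 1 to 3. With that median subtracted, VAV1 stood at 0.21, 0.24 and 0.43 in the clones and at -0.0031, 0.11 and -0.097 in the Control lines. The median log2 fold change of the tested genes in that window was 0.27. The part of this regional shift in the VAV1 difference was not tested.

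**Figure D4:**
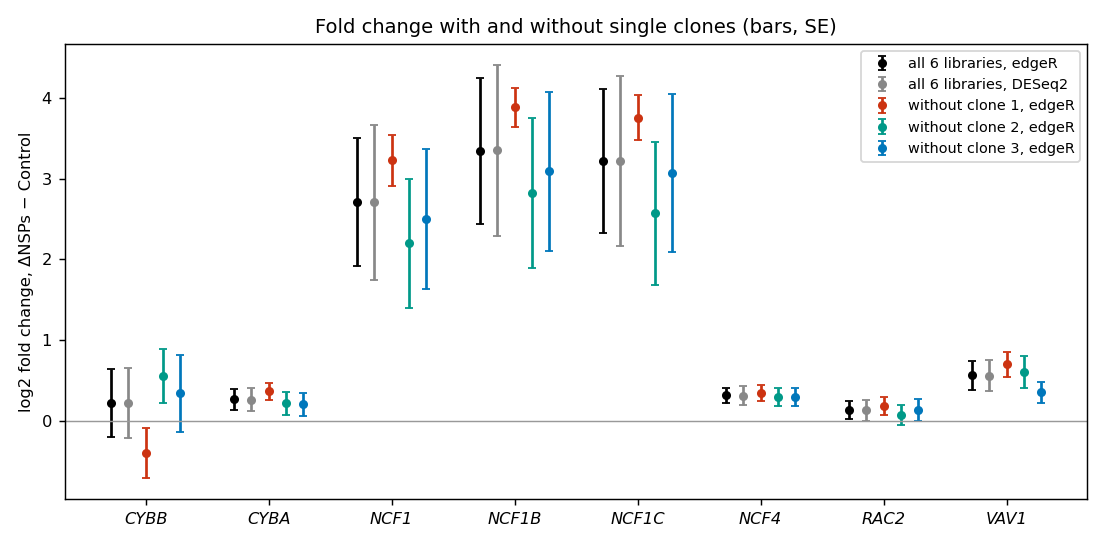
Log2 fold change of ΔNSPs against Control (y axis, bars ± SE) for the 8 genes on the x axis, from all 6 libraries in edgeR and DESeq2 and from edgeR without each clone. For the NCF1 loci the SE is 0.24 to 0.32 without clone 1 and 0.79 to 0.91 with all libraries, and CYBB lies below 0 only without clone 1 among the fits drawn.

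Per kilobase of annotated exon, a scale on which genes can be ranked, the oxidase transcripts of the Control lines fell into an abundant and a scarce set. CYBA had a mean of 87.5 CPM per kb and RAC2 of 84.2, and their Control libraries overlapped. NCF4 followed at 64.2 CPM per kb, below all RAC2 values, and VAV1 at 23.2. CYBB, at 1.03 CPM per kb, NCF1C at 0.941, NCF1 at 0.746 and NCF1B at 0.554 were far lower, and each of these overlapped its neighbour in that order. The annotated exon length of NCF1, 3462 bases, includes retained introns and lowers its value on this scale, so the order among these 4 is not settled. The handling of reads with several matches is unknown, and if such reads were left out, the NCF1 loci stand too low here. Their distance from the abundant set is therefore uncertain. Over the clones the mean was 105 CPM per kb for CYBA and 1.20 for CYBB, with NCF1C, NCF1B and NCF1 at 8.79, 5.69 and 4.89. Those means of the NCF1 loci were carried by clones 2 and 3: in clone 1 CYBB, at 2.03 CPM per kb, stood above NCF1C at 0.750, NCF1 at 0.639 and NCF1B at 0.450. By level per kb over all 6 libraries, CYBA stood above 96.2% of tested genes, RAC2 above 95.9%, NCF4 above 94.8% and VAV1 above 86.2%, against 16.9% for CYBB.

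The genes next to the 3 NCF1 loci on chromosome 7 showed no difference as wide as that of the loci between them. GTF2I, which ends 13270 bases before NCF1, was at 79.1 to 83.3 CPM in Control and at 86.8, 96.2 and 87.3 CPM in clones 1 to 3. GTF2IRD2, 6829 bases beyond NCF1, was at 1.11 to 2.78 CPM in Control and 1.74 to 2.61 CPM in the clones. It rests on 13 to 32 counts per library. GTF2IRD2B, on the lower side of NCF1C, was at 12.2 to 18.7 CPM in Control and 11.1 to 15.7 CPM in the clones. GTF2IP4 and GTF2IP1, copies of GTF2I beside NCF1B and NCF1C, had log2 fold changes of 0.33 and 0.20. The split of reads between GTF2I and its copies may be uncertain too. NSUN5, an RNA methyltransferase gene beyond NCF1B, was at 82.9 to 114 CPM in Control and at 122, 171 and 190 CPM in clones 1 to 3 (log2 fold change 0.75, edgeR adjusted p = 0.171), and it rose in DESeq2 (adjusted p = 0.0121). Over the 61 expressed genes within 10 Mb of NCF1, the median log2 ratio to the Control mean was 0.029, 0.043 and 0.11 in clones 1 to 3. Near CYBB, XK and DYNLT3 were lower in clones 2 and 3 than in the Control lines, at 31.1 and 40.3 CPM against 70.1 to 101.3 CPM for XK and at 15.6 CPM in both clones against 23.8 to 34.5 CPM for DYNLT3. In clone 1 they stood at 85.0 and 31.5 CPM. Neither gene passed in edgeR, with log2 fold changes of -0.74 (adjusted p = 0.305) and -0.55 (adjusted p = 0.359). Over the 29 expressed genes within 10 Mb of CYBB, the median log2 ratio was -0.027, -0.15 and -0.30 in clones 1 to 3. It was -0.13, 0.064 and 0.035 in Control replicates 1 to 3. The part of this shift in the CYBB levels was not tested.

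Promoter sequence is shown for NCF1 and CYBB, which are known in myeloid cells as targets of PU.1, a factor encoded by SPI1 that binds purine-rich ETS sites. The letters GAGGAA were searched on both strands in the RefSeq promoters (250 bases before to 50 after the gene start, GRCh38.p14), which had entries for CYBB, CYBA, NCF1 and VAV1, and 27.9% of all 35116 promoters held them. The 30 bases around each match in NCF1 and CYBB and the matching stretch of the first exon of NCF1C in GENCODE are given with the match, TTCCTC on this strand, in capitals.
NCF1 promoter: gacaaaagcgacTTCCTCtttccagtgcat
NCF1C first exon: gacaaaagcgacTTCCTCtttccagtgcat
CYBB promoter: tgctgttttcatTTCCTCattggaagaaga
These lie at chr7:74773954-74773983 (plus strand), chr7:75171992-75172021 (minus strand) and chrX:37779999-37780028 (plus strand). The match begins 45 bases before the RefSeq start of NCF1 and 48 bases before that of CYBB. GENCODE places both starts further upstream: by its coordinates the NCF1 match lies within the gene, as the NCF1C match does, and the CYBB match opens at the first base of the gene. The NCF1 and NCF1C stretches are the same letter for letter. VAV1 held 2 matches and CYBA held 0, which says only that these letters are not in that window. SPI1 itself was at 115 to 126 CPM in Control and at 127, 138 and 154 CPM in clones 1 to 3 (log2 fold change 0.20 with SE 0.11, and edgeR adjusted p = 0.366).

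Genes that surround the oxidase were read from 6 lists, of which 91 genes outside the 8 were in the table and 86 were tested. By edgeR's adjusted p, 0 of the 86 passed, and 21 had an unadjusted p under 0.05, where 17.8% of all tested genes did. DESeq2 gave an adjusted p to 80 and called 5 (FGR, FCER1G, CEBPB and RUNX1 higher, FCGR2A lower), against 3.98% of all genes, and limma voom called 0. Without clone 1 edgeR called 10 of 86, 9 higher and 1 lower, where it called 6.17% of all tested genes. The median log2 fold change of all tested genes was 0.0023, and 50.3% were positive. Within a list, the highest CPM means the highest without scaling by length.

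Among the other subunits and partners, all 5 genes had positive log2 fold changes, with a median of 0.14. CDC42 and RAC1, small GTPases, had the highest CPM, and RAC1 stood at 288 to 301 CPM in Control and 295 to 351 CPM in the clones. CDC42 had a log2 fold change of 0.17. CYBC1, a chaperone of the cytochrome, was at 51.8 to 60.3 CPM and 54.0 to 71.3 CPM. Of 11 genes of other oxidases and their partners, 6 were in the table and 4 were tested (NOX1, NOXO1, NOXA1 and HVCN1), with a median log2 fold change of 0.57. HVCN1, the proton channel that balances the charge moved by the oxidase, was at 11.4 to 19.5 CPM in Control and 13.1 to 21.1 CPM in the clones. NOXO1 and NOXA1, the organiser and activator of another oxidase, had log2 fold changes of 0.88 (edgeR adjusted p = 0.277) and -0.87 (edgeR adjusted p = 0.298).

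Across the 17 tested regulators of Rac the median log2 fold change was -0.030, with 7 positive, and 2 were lower at an unadjusted p under 0.05, against 17.8% of all tested genes in either direction. RAC3 was at 46.7 to 52.0 CPM in Control and at 44.3, 29.9 and 23.5 CPM in clones 1 to 3 (log2 fold change -0.58, edgeR adjusted p = 0.235), and it fell without clone 1 (log2 -0.87, edgeR adjusted p = 0.0231). PREX1, a Rac exchange factor, was at 91.3 to 104 CPM in Control and at 68.7, 144 and 151 CPM in the clones, and rose without clone 1 (log2 0.59, edgeR adjusted p = 0.0261). The kinases and lipid enzymes had a median of -0.0063 over 27 tested genes, and 5 had a higher and 2 a lower level with an unadjusted p under 0.05 (17.8% over all genes). SYK and PIK3CD, with the highest CPM, had log2 fold changes of -0.0063 and -0.23. FGR, a Src-family kinase, was at 21.7, 30.5 and 33.1 CPM in Control and at 32.6, 78.4 and 85.2 CPM in the clones (log2 fold change 1.20 with SE 0.34, and edgeR adjusted p = 0.178), and rose in DESeq2 (adjusted p = 0.00897). PIK3R5, a regulatory subunit of phosphoinositide 3-kinase gamma, was at 17.3 to 21.5 CPM in Control and at 22.8, 39.9 and 29.9 CPM in the clones (edgeR adjusted p = 0.2), and rose without clone 1 (log2 0.81, edgeR adjusted p = 0.0382).

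For the 15 tested receptors that can trigger the oxidase the median log2 fold change was 0.50, 12 were positive (50.3% over all genes), and the unadjusted p was under 0.05 for 4 higher and 1 lower gene (17.8% over all genes). FCER1G, the signalling chain of Fc receptors, was at 21.7, 17.9 and 19.9 CPM in Control and at 21.1, 62.5 and 54.6 CPM in clones 1 to 3 (log2 fold change 1.21 with SE 0.35, and edgeR adjusted p = 0.181), and rose in DESeq2 (adjusted p = 0.0122). ITGAM, the alpha chain of complement receptor Mac-1, was at 2.13 to 5.81 CPM in Control and at 5.14, 11.8 and 8.60 CPM in the clones. ITGB2, the beta chain of Mac-1, and TLR4 had the highest CPM of the list, with log2 fold changes of 0.51 and 0.52, and ITGB2 rose without clone 1 (log2 0.81, edgeR adjusted p = 0.0209). FCGR2A, a receptor for IgG, fell in DESeq2 (adjusted p = 0.044), from 27.5 to 34.7 CPM in Control to 17.6, 25.2 and 18.5 CPM in the clones. Transcription factors of oxidase genes had a median of 0.13 over 18 tested genes, 11 of them positive, and the unadjusted p was under 0.05 for 5 higher and 0 lower genes, where 17.8% of all tested genes met that mark. CEBPB was at 64.4 to 75.8 CPM in Control and at 81.5, 213 and 174 CPM in clones 1 to 3 (log2 fold change 1.12 with SE 0.31, and edgeR adjusted p = 0.178), and rose in DESeq2 (adjusted p = 0.00637). RUNX1 was at 87.9 to 117 CPM in Control and at 112, 193 and 165 CPM in the clones, and rose in DESeq2 (adjusted p = 0.0427). CEBPA and SATB1, with the highest CPM of this list, had log2 fold changes of -0.087 and -0.18. For FCER1G, CEBPB, FGR and RUNX1, as for NCF1, clones 2 and 3 were the 2 highest libraries. These list genes were named for their change in these same data, which favours such an order, so it is a description only.

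**Figure D5:**
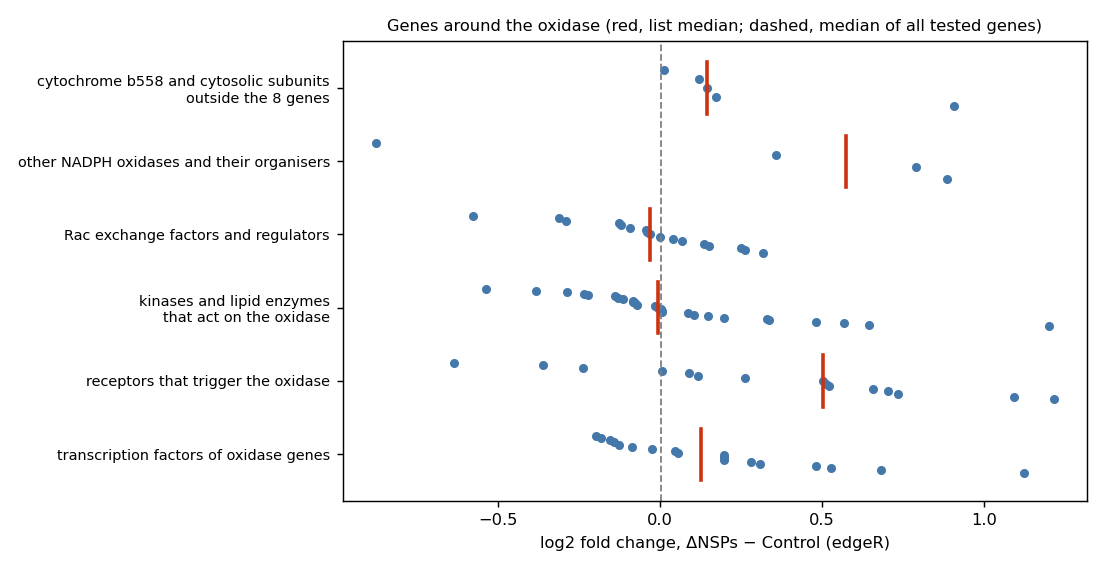
Log2 fold change of ΔNSPs against Control in edgeR (x axis) for the tested genes of the 6 lists (y axis), with the list median in red and the median of all tested genes, 0.0023, as a dashed line. The receptor list has its median at 0.50 and the kinase list at -0.0063.

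The genes whose levels ran most nearly in parallel with each oxidase gene were sought among 8952 protein-coding genes (mean level 10 CPM or more), by Pearson correlation of log2 CPM over the 6 libraries. Each point is 1 library, so all genes share its depth and clone, and over 6 points many genes reach a high value: these are descriptions. For NCF1 they were MYO9B (r = 0.999) and SHKBP1 (0.992), and 79 genes exceeded 0.95. MYO9B, an unconventional myosin, was at 151 to 161 CPM in Control and at 153, 186 and 182 CPM in clones 1 to 3. It thus had the same order with a far smaller step than NCF1. MEGF9 and DPM1 were nearest to NCF1B (r = 0.998 and 0.997). GPSM3 and the integrin chain ITGAL were nearest to NCF1C (0.997 and 0.994), and ITGAL was at 41.6 to 49.1 CPM in Control and at 37.4, 109 and 102 CPM in the clones. The nearest to CYBB were the nucleoside transporter SLC29A1 (0.988), at 240 to 248 CPM in Control and 287, 216 and 238 CPM in the clones, and LAX1 (0.977). FAM32A and CPNE1 were nearest to CYBA (0.996 and 0.994), GOSR2 and DMAP1 to NCF4 (0.995 and 0.993), KDM6B and TRIM52 to RAC2 (0.981 and 0.980), and SACM1L and SNAPC2 to VAV1 (0.993 both). MYO9B, SHKBP1, FAM32A and SNAPC2 lie on chromosome 19, as VAV1 does. FAM32A and SNAPC2 are within 10 Mb of VAV1, where the median of expressed genes was higher in clones 2 and 3. The part of that shift in these correlations was not tested.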

How the data were processed

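Unnormalized gene counts were deposited by the authors in 1 table for 3 Control and 3 ΔNSPs libraries, where each row totals at least 10. The submitters' processing notes name HTSeq 0.11.1, HISAT2 2.0.0, FastQC, and SAMtools 1.5.9, and the build GRCh38.p12. The annotation release and the strand and multi-mapping settings were not given in the sources used here. Symbols, positions and exon lengths came from GENCODE release 29 (GRCh38), with a match for 18771 of 18798 genes. The main test was edgeR 4.0.16 in R 4.3.3 (TMM, filterByExpr by group, quasi-likelihood), two-sided, with Benjamini-Hochberg adjustment over 14797 genes. Fold changes are ΔNSPs minus Control on the log2 scale, and errors are SD over 3 libraries or SE. Alternatives were DESeq2 1.42.0, limma 3.58.1 (voom with quality weights), other size factors and filters, the replicate number as a block, and leaving out each library; robust dispersions were added after seeing the data. Neighbouring genes within 10 Mb had a mean of at least 8 CPM, with a pseudocount of 0.5 CPM. No pair of libraries in a group agreed within sampling noise (chi-square per degree of freedom at least 7.13).

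The 8 genes and the lists were chosen with earlier results of these data known. Genes named beside the 8 were, per list, any gene past the edgeR threshold, the 2 with the highest CPM and the 2 with the largest change at a mean of at least 2 CPM; the nearest gene with a mean of at least 1 CPM on each side of a member; and the 2 most parallel genes (prior count 2). CYBC1, SPI1, FCGR2A, the markers and the list genes described as called by DESeq2 or without clone 1 were added after their values were seen. A few of the genes so named were left out of the text.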

Additional observations from a re-analysis of the deposited data

How the results depend on the processing

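All 8 genes kept the direction of their log2 fold change under the 14 alternatives, except CYBB, which reversed in limma voom (-0.14) and without clone 1 (-0.41; its range over left-out libraries was -0.41 to 0.55). Leaving out single libraries gave 0 to 4 of the 8 genes past the threshold, 0 to 10 of the list genes and 0 to 928 of all genes, with the highest count in each case without clone 1; without Control replicate 1 there were 20 genes in all. DESeq2 gave 1, 5 and 515, and robust dispersions gave 1 gene in all. The log2 fold change of the NCF1 family sum ran from 2.46 to 3.55 over the left-out libraries, and it passed only without clone 1 among the alternatives run. NCF1, NCF1B, NCF1C and VAV1 also passed without clone 1, and NCF1B in DESeq2. The replicate numbers are shared by the groups, and the labels do not say whether they pair the samples. Same-numbered libraries did not deviate together from their group means (correlations of -0.43, -0.16 and -0.14). With 3 libraries in a group, this cannot exclude a batch shared by number. With the number as a block, the family sum had a log2 fold change of 2.47 (edgeR adjusted p = 0.406), and edgeR called 0 genes in all, with 1779 at an unadjusted p under 0.05. Depth limits CYBB and, in Control and clone 1, the NCF1 loci, which rest on 11 to 126 counts a library.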

Other observations

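IRF8, a transcription factor that acts on CYBB, differed between libraries within both groups. The highest levels were 52.1 CPM in Control replicate 1 and 50.2 CPM in clone 2, against 3.12 and 4.68 CPM in Control replicates 2 and 3 and 0.928 and 2.87 CPM in clones 1 and 3 (edgeR adjusted p = 0.969 between the groups). CYBB was lowest in these same libraries within each group, at 4.09 CPM in Control replicate 1 and 2.58 CPM in clone 2. CYBB was highest in clone 1, where IRF8 was lowest. Clone 3 did not follow that order: its IRF8 level was below every Control line, while its CYBB level, 4.39 CPM, lay within the Control range. The Control difference in CYBB is small and rests on 48 counts in replicate 1 against 66 and 56 in replicates 2 and 3. IRF8 was chosen after its values were seen, and no relation between these genes was tested.

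The correlation of log2 CPM over the 6 libraries, given as a description, was 0.936 between CYBA and NCF1, 0.844 between CYBA and NCF4 and 0.875 between CYBA and VAV1. Between CYBB and each other gene of the set it was negative, from -0.159 with NCF4 to -0.674 with NCF1C.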
